A study of Mus musculus with 12 samples.

Results

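The nuclear genes for subunits of respiratory complexes III, IV and V were followed in RNA-seq gene counts from mouse perigonadal white fat, the visceral fat pad around the gonads. Members were the protein-coding genes whose GRCm38 symbol starts with Uqcr, Atp5, Cox4i, Cox5, Cox6, Cox7 or Cox8, together with Cyc1 and Cycs. The isoform genes Cox7a1 and Cox8b were left out and appear only as partners in isoform ratios. This gave 43 of the 53379 genes in the count files, of which 9 belong to complex III, 1 is cytochrome c, 16 belong to complex IV and 17 to complex V. The rule uses symbols and no measured value, but it was set with earlier results of these data known.

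All mice were C57BL/6, 9 weeks old, and killed at zeitgeber time 9. Mice with an adipose-specific knockout of Cdk7 received injections of CL (ko CL) or saline (ko saline) over 7 days, and their littermates with intact Cdk7 likewise received CL (wt CL) or saline (wt saline). CL is named only by this abbreviation, which in work on fat commonly stands for an agonist of the beta-3-adrenergic receptor, and the labels do not name the promoter behind the knockout. Each group had 3 libraries, and each library held RNA of 2 mice, so the spread behind each p-value is that between such pools. The design asks how Cdk7, which belongs to the transcription factor TFIIH, bears on the response of white fat to CL.

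Complex III passes electrons from ubiquinol to cytochrome c, and complex IV, cytochrome c oxidase, passes them on to oxygen. Both pump protons across the inner mitochondrial membrane, and complex V, the ATP synthase, lets protons flow back to make ATP. In brown and beige adipocytes Ucp1 offers the protons another way back, which turns respiration into heat. The catalytic cores of complexes III and IV and the proton channel of the ATP synthase contain subunits made inside mitochondria, while the genes described here lie in the nucleus.

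Libraries held 21892817 to 27985019 gene counts. A genotype tag in the labels contradicts 6 of the 12 titles, and groups were taken from the titles. Cdk7, the check of those titles, was at 18.1 to 23.6 CPM in ko CL, 11.02 to 11.72 in ko saline, 30.4 to 35.4 in wt CL and 29.3 to 30.0 in wt saline (CPM, the usual depth-scaled read count, with libraries scaled by edgeR's trimmed mean of M values, TMM). The ko libraries were below the wt libraries under both treatments, by -0.68 ± 0.09 under CL and -1.38 ± 0.10 under saline on the log2 scale (SE, edgeR's quasi-likelihood test, adjusted p = 3.64e-05 and 6.21e-06). Several libraries stood apart from their group. Library 1 of ko CL had 10.2 CPM of Ucp1 against 51.0 and 51.9 in the other ko CL libraries, and library 2 of ko CL had a summed level of 5 B cell markers of 2595 CPM against 412 and 466. In wt saline, library 1 had 27.5 CPM of summed ciliated or duct epithelium markers against 0.881 and 1.74 (ko saline libraries were higher still, at 60.7 to 84.8), and library 2 had 72.3 CPM of 6 summed skeletal muscle markers against 30.5 and 40.4. Adipocyte markers were present in every library, with a summed level of 6738 to 10309 CPM in ko CL, 14122 to 15035 in ko saline, 24762 to 26803 in wt CL and 20398 to 22509 in wt saline; in libraries 1 and 3 of ko CL the 7 macrophage markers summed to more than the 6 adipocyte markers.

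Of the 43 genes, 40 had enough counts to be tested among 16554 genes, and 3 did not. Cox4i1, which encodes the form of subunit 4 found in most tissues, had 0 counts in every library, although no gene overlaps it on its strand in GENCODE M21 and 14.7% of its 50-base windows recur in another gene. The cause of these 0 counts was not tested, and no level of Cox4i1 can be given. Cox7b2 and Cox8c, isoforms known from testis, had 1 count each in all libraries together. A further caution concerns genes with near-identical copies, because the counter leaves out reads that match several places: 84.8% of the 50-base windows of Atp5l recur in other genes, 50.3% of those of Atp5o, 47.9% of those of Atp5h and 43.4% of those of Uqcrb. The levels of these genes are uncertain.

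Together the members took 0.663% of gene counts in library 1 of ko CL and 0.936% and 0.872% in the other ko CL libraries, and 0.768% to 0.848% in ko saline. They took 1.29% to 1.36% in wt CL and 0.727% to 0.753% in wt saline. The wt CL libraries thus lay above all others, while the ko CL libraries lay on either side of the ko saline libraries. Complex V made up most of this share in every library. Per kilobase of exon, the most abundant member in all groups was Atp5b, at 438 CPM per kb in ko CL, 430.4 in ko saline, 1128 in wt CL and 448 in wt saline.

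**Figure D1:**
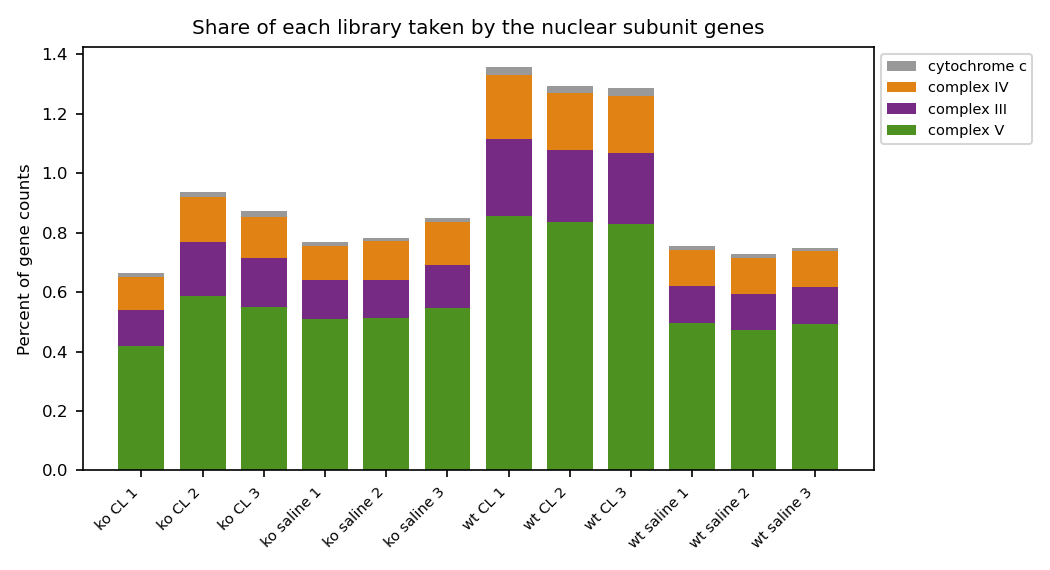
Share of gene counts taken by the members in each library, stacked by complex (vertical axis, percent of gene counts; horizontal axis, the 12 libraries). The 3 wt CL libraries reach 1.29% to 1.36%, and the other 9 stay between 0.663% and 0.936%.

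CL raised most of these genes in wt fat and few of them in ko fat. In ko, 11 of the 40 tested members were called higher under CL and 3 lower (edgeR's quasi-likelihood test, Benjamini-Hochberg adjustment over 16554 genes, called under 0.05), where 27.2% of all tested genes were called higher and 27.5% lower. In wt, 34 were called higher and 0 lower by edgeR, against 19.6% and 17.1% of all genes; at an unadjusted p under 0.05 there were 35 higher and 1 lower, and DESeq2 also called 0 lower. The median log2 fold change of the members was 0.18 in ko and 1.0 in wt, and that of all tested genes was -0.01 in both. All 3 CL libraries lay above all 3 saline libraries for 6 members in ko and 35 in wt, where 29.7% and 26.6% of all tested genes did so, and below them for 3 members in ko and 1 in wt, against 31.2% and 24.4% of all genes.

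Set against wt, ko fat under CL was called lower in 35 members and higher in 2 (background 29.3% lower and 27.6% higher), with a median of -0.91. All 3 ko libraries lay below all 3 wt libraries under CL for 35 members and above them for 2 (32.7% and 30.9% of all genes), and under saline below for 3 and above for 1 (18.2% and 19.4% of all genes). Under saline edgeR called 0 members higher and 0 lower, where 7.99% and 6.45% of all genes were called. At an unadjusted p under 0.05, 0 were higher and 1 lower under saline, the smallest adjusted p was 0.155 for Cox4i2, and DESeq2 called 0. The CL response itself differed between genotypes in 31 members, smaller in ko for 30 and larger for 1, where 23.6% and 21.8% of all genes were called, and its point estimate was smaller in ko for 35 of 40. Of the 34 genes that rose in wt, 8 also rose in ko, 1 fell there and 25 were not called.

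The number rising in ko rested on few libraries. It was 20 without library 1 of ko CL, and 4 without library 2 or 3 of ko CL or without library 1 or 2 of ko saline. It was 6 when libraries were scaled by size alone and 6 when only the groups compared were fitted. The calls of Uqcrh, Cox5a, Cox7b, Cox7c, Atp5d, Atp5g2 and Cycs were the ones lost each time the number fell to 4. Counts of 34 in wt and 35 under CL kept within 1.5 times of these values in every alternative run.

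**Figure D2:**
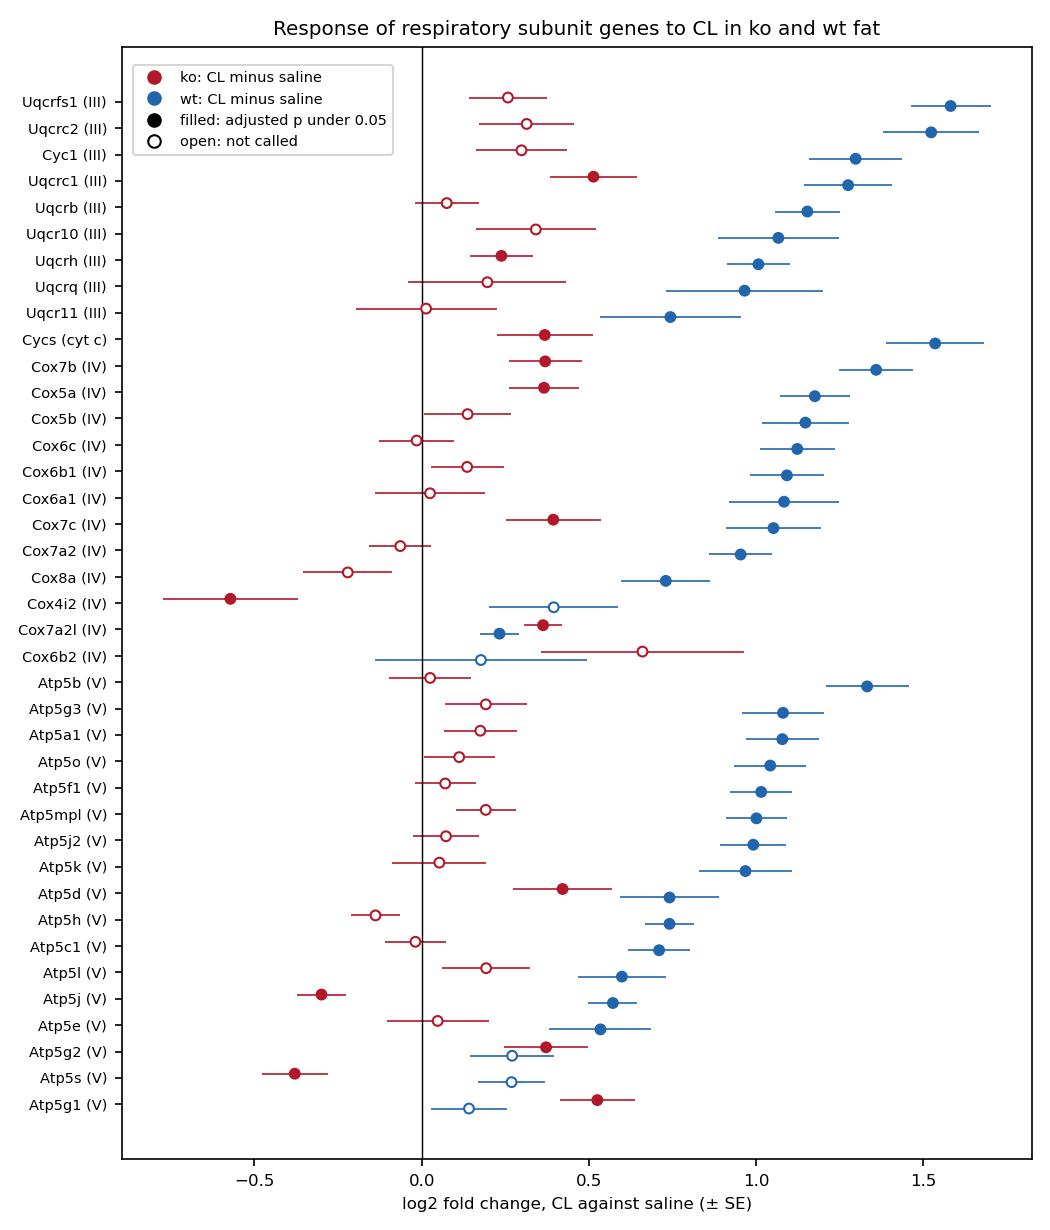
Log2 fold change of CL against saline with its SE for 39 members (Cox6a2, at 5.17 in ko and off the scale, is left out), in ko (red) and wt (blue), grouped by complex and sorted by the wt value. Filled points have an adjusted p under 0.05; the wt points lie to the right of the ko points except for Cox7a2l, Cox6b2, Atp5g1 and Atp5g2.

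Markers of several cell types also changed. Under CL, ko fat had all 7 macrophage markers called higher than wt, at a summed 10050.5 to 14698 CPM against 595 to 703. All 6 adipocyte markers were called lower. All 4 fibroblast markers were higher in ko under CL and all 4 endothelial markers lower. In this comparison 27.6% of all genes were called higher and 29.3% lower. Within ko, CL against saline gave 7 of 7 macrophage markers higher and 5 of 6 adipocyte markers lower (27.2% and 27.5% of all genes). Within wt, 5 of 7 macrophage and all 4 fibroblast markers fell with CL, and 3 of 4 endothelial markers rose. Of the 6 adipocyte markers 1 rose and 1 fell in wt (19.6% and 17.1% of all genes). Under saline 4 of 6 adipocyte markers were lower in ko (6.45% of all genes), and 0 macrophage markers were called. The part of these cells in the members' values was not tested, and in such bulk samples fewer cells of a type and less RNA per cell cannot be told apart. All 6 brown or beige markers rose under CL in both genotypes, to a summed 44.3 to 155 CPM in ko and 431 to 499.9 in wt.

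Complex III had the largest median rise of the 3 complexes in wt. All 9 of its genes rose under CL in wt (median log2 fold change 1.15), against 19.6% of all tested genes. In ko 2 of 9 rose (median 0.26), no larger a share than the 27.2% of all genes. All 9 were lower in ko than in wt under CL (median -1.03), against 29.3% of all genes. Uqcrfs1 encodes the Rieske iron-sulphur protein, which takes the first electron from ubiquinol. It was at 151, 225 and 219.9 CPM in ko CL and 167, 157 and 175 in ko saline, and at 472, 448 and 463 CPM in wt CL and 157, 151 and 154 in wt saline. The wt CL libraries stood well clear of the others, while ko CL overlapped ko saline. Uqcrfs1 differed by 0.26 ± 0.12 between CL and saline in ko (SE, adjusted p = 0.0797) and rose by 1.58 ± 0.12 in wt (adjusted p = 1.91e-06), and the response in ko was smaller by -1.32 ± 0.17 (adjusted p = 4.07e-05, edgeR).

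The core proteins Uqcrc1 and Uqcrc2, which are related to mitochondrial processing peptidases, followed. Uqcrc2 was at 279.6, 455 and 421 CPM in ko CL and 339, 279 and 311 in ko saline, against 874, 835 and 887 CPM in wt CL and 312, 287 and 304 in wt saline. It rose by 1.52 ± 0.14 in wt (adjusted p = 8.36e-06), and its change in ko, 0.31 ± 0.14, was not called (adjusted p = 0.0767, edgeR). Uqcrc1 was at 203, 312 and 271 CPM in ko CL and 174, 176 and 200.02 in ko saline, so that CL libraries lay above saline libraries. Its wt levels were 559, 509 and 458 CPM under CL and 214, 200.4 and 216 under saline. Uqcrc1 is thus a gene that rose in both genotypes, by 0.51 ± 0.13 in ko (adjusted p = 0.00471) and 1.27 ± 0.13 in wt (adjusted p = 1.54e-05), with a difference of -0.76 ± 0.18 between them (adjusted p = 0.00443, edgeR).

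Cyc1, the cytochrome c1 that hands the electron on, rose by 1.30 in wt and differed by 0.30 in ko (adjusted p = 0.0829, edgeR). Among the small subunits, Uqcrb rose by 1.15, Uqcr10 by 1.07, Uqcrh by 1.01, Uqcrq by 0.97 and Uqcr11 by 0.74 in wt. In ko their values ran between 0.01 for Uqcr11 and 0.34 for Uqcr10, and only Uqcrh, at 0.24, was called among the 5 (adjusted p = 0.0461, edgeR). The wt call of Uqcr11 was lost without library 1 of wt CL, without library 1 of wt saline, without library 2 of ko CL and libraries 1 and 2 of wt saline together, and with scaling by library size alone, and that of Uqcrq without those 3 libraries. For Uqcr11 and Uqcrq the difference of responses was not called by edgeR.

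Cycs, the mobile electron carrier between complexes III and IV, was at 106, 151 and 182 CPM in ko CL and 118, 109 and 113 in ko saline. In wt it was at 324, 282 and 331 CPM under CL and 107, 114 and 102 under saline. The ko CL libraries spread from the saline level upward, while all wt CL libraries were far above wt saline. Cycs rose by 0.37 ± 0.14 in ko (adjusted p = 0.0455) and by 1.53 ± 0.15 in wt (adjusted p = 9.07e-06), and the ko call was lost when any of the 12 libraries but library 1 of ko CL was left out, as was that of Uqcrh (edgeR).

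Uqcrfs1 and Cycs rose most in wt, and the start regions of both hold the cyclic AMP response element TGACGTCA, the palindrome bound by CREB and its relatives. They are shown because no other member window with a RefSeq sequence holds it. Each runs from 250 bases before the annotated start to 50 bases from it, on the minus strand of GRCm38.p6 (RefSeq), at chr13:30545267-30545566 and chr6:50566520-50566819, with the element in capitals.
Uqcrfs1: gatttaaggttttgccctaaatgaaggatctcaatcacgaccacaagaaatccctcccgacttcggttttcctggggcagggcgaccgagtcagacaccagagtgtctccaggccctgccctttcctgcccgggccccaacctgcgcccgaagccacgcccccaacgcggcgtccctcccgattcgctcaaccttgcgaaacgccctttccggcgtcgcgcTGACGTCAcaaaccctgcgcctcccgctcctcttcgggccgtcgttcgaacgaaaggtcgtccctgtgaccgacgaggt
Cycs: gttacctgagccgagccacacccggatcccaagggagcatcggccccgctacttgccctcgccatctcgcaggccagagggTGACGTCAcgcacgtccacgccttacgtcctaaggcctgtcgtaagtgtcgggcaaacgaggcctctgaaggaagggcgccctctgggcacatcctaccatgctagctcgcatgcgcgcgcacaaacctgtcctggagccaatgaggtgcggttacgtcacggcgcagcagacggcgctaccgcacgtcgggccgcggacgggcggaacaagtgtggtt

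RefSeq windows were found for 30 of the 43 members, 33 windows in all. TGACGTCA stood in 6.06% of these windows and in 1.79% of all 32851 windows of the same length. The NRF1 motif, a pair of GCGC with A and then any base between them, stood in 24.2% of member windows and 4.60% of all, the GABP motif ACTTCCGG in 12.1% and 3.89%, the YY1 motif AAGATGGCG in 6.06% and 1.40%, and the oestrogen-related receptor motif TNAAGGTCA in 3.03% and 1.28%. Both strands were searched, and overlaps between motifs were not excluded. NRF1 matches lay at Uqcrc1, Cox6a1, Atp5c1, Atp5g2, Atp5g3, Atp5h, Atp5k and Atp5o, which are members of all 3 complexes. The median log2 fold change under CL in wt was 1.005 for these 8 genes and 0.99 for the 21 other tested members with a window. These matches are a description of letters in the windows.

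In complex IV, the 9 nuclear subunits used in most tissues all rose under CL in wt, against 19.6% of all genes. In ko 3 of the 9 rose, a share near the 27.2% of all genes. All 9 were lower in ko than in wt under CL, and all 9 had a smaller CL response in ko (29.3% and 23.6% of all genes). In wt the rises were 1.36 for Cox7b, 1.18 for Cox5a, 1.15 for Cox5b, 1.123 for Cox6c, 1.09 for Cox6b1, 1.08 for Cox6a1, 1.05 for Cox7c, 0.95 for Cox7a2 and 0.73 for Cox8a. Cox5a and Cox5b lie on the matrix side of the enzyme, Cox6b1 faces the intermembrane space and the others span the membrane. The genes that rose in ko were Cox7c at 0.39, Cox7b at 0.37 and Cox5a at 0.37.

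Cox6c had the largest genotype difference of these 9 under CL. It was at 112, 147 and 132 CPM in ko CL and 120.2, 127 and 148 in ko saline, against 352, 289 and 333 CPM in wt CL and 139, 156 and 153 in wt saline. Cox6c was therefore at its saline level in the ko CL libraries, and the lowest wt CL library was above every other library. The difference of ko from wt was -1.32 ± 0.11 under CL (adjusted p = 5.83e-07) and -0.18 ± 0.11 under saline (adjusted p = 0.319), and the responses differed by -1.14 ± 0.16 (adjusted p = 8.92e-05, edgeR).

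Cox4i2, the subunit 4 isoform best known from lung and from low oxygen, went another way. It was scarce, at 1.80, 2.37 and 2.46 CPM in ko CL and 3.70, 2.86 and 3.29 in ko saline, and at 4.30, 7.01 and 6.16 CPM in wt CL and 4.44, 4.80 and 4.06 in wt saline. The ko CL libraries were the lowest of all 12 and did not overlap any other group. Cox4i2 fell by 0.57 in ko under CL (SE 0.20, adjusted p = 0.0284) and was not called in wt (0.39 ± 0.19, adjusted p = 0.127), and it was lower in ko than in wt under CL by -1.40 ± 0.20 (adjusted p = 5.68e-05, edgeR). Its fall in ko was not called without library 1 of ko CL or library 1 of ko saline. Nor was it called without library 2 of ko CL and libraries 1 and 2 of wt saline together.

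Cox7a2l, known as a factor that joins complexes III and IV into supercomplexes, did not share the pattern of the subunits. Whether its protein does so in these mice was not measured. Cox7a2l was at 120.5, 112 and 117 CPM in ko CL and 86.4, 91.3 and 93.8 in ko saline, and at 103, 100.9 and 106 CPM in wt CL and 84.1, 88.0 and 91.5 in wt saline. Both CL groups lay above both saline groups, with ko CL highest. Cox7a2l rose by 0.36 ± 0.06 in ko (adjusted p = 0.000162) and 0.23 ± 0.06 in wt (adjusted p = 0.00705), and the responses did not differ by a called amount (0.13 ± 0.08, adjusted p = 0.214, edgeR). Its level was higher in ko than in wt under CL by 0.17 ± 0.06 (adjusted p = 0.0207, edgeR). This difference was not called without library 1 or 3 of ko CL, library 1 or 2 of wt CL or the filter on low counts. The wt rise was not called without a filter on low counts, without library 1 of wt saline or without library 2 of ko CL and libraries 1 and 2 of wt saline together. It was negative, and not called, when libraries were scaled by size alone, a setting that moved the median of all genes by -0.33.

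Cox6a2, the heart and skeletal muscle form of subunit 6a, was at the edge of detection and showed up mainly in ko CL. Its raw counts were 12, 19 and 17 in ko CL, 1 in all ko saline libraries together, 0 in all wt CL libraries and 5 in wt saline. With libraries scaled by TMM, ko CL was at least 10.9-fold higher than wt CL, reckoned against a floor of 3 counts over wt CL. That bound leaves out the counting error of ko CL. Ko CL was 50.5-fold higher than ko saline (95% counting interval 8.64 to 2035, which covers counting error only). edgeR called it higher under CL in ko (adjusted p = 0.000139) and in ko against wt under CL (adjusted p = 0.000156); the fitted fold change depends on a prior count and gives no bound. Of 4 tested skeletal muscle markers, 3 were higher in ko than in wt under CL by edgeR, against 27.6% of all genes. With CL in ko 0 were higher and 1 lower, against 27.2% and 27.5% of all genes. The Cox6a2 result was not tested against these markers. The summed level of the 6 was 8.01 to 9.61 CPM in ko CL, 11.4 to 20.7 in ko saline, 3.31 to 5.25 in wt CL and 30.5 to 72.3 in wt saline, a sum carried largely by Acta1. The markers did not move together: Actn3 was at 2.74, 3.11 and 2.76 CPM in ko CL and 1.23, 1.61 and 2.20 in ko saline, and Acta1 was at 4.09, 2.91 and 4.18 CPM in ko CL and 7.94, 16.4 and 12.4 in ko saline. Myh4 was at 0 in ko CL, wt CL and wt saline. Per kilobase, Cox6a2 was at 0.874 CPM per kb in ko CL, where its common counterpart Cox6a1 was at 141. Cox6b2, known from testis, was at 0.544 to 1.63 CPM in the 12 libraries and was called in no comparison by edgeR. Testis germ cell markers summed to at most 0.146 CPM in any library.

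**Figure D3:**
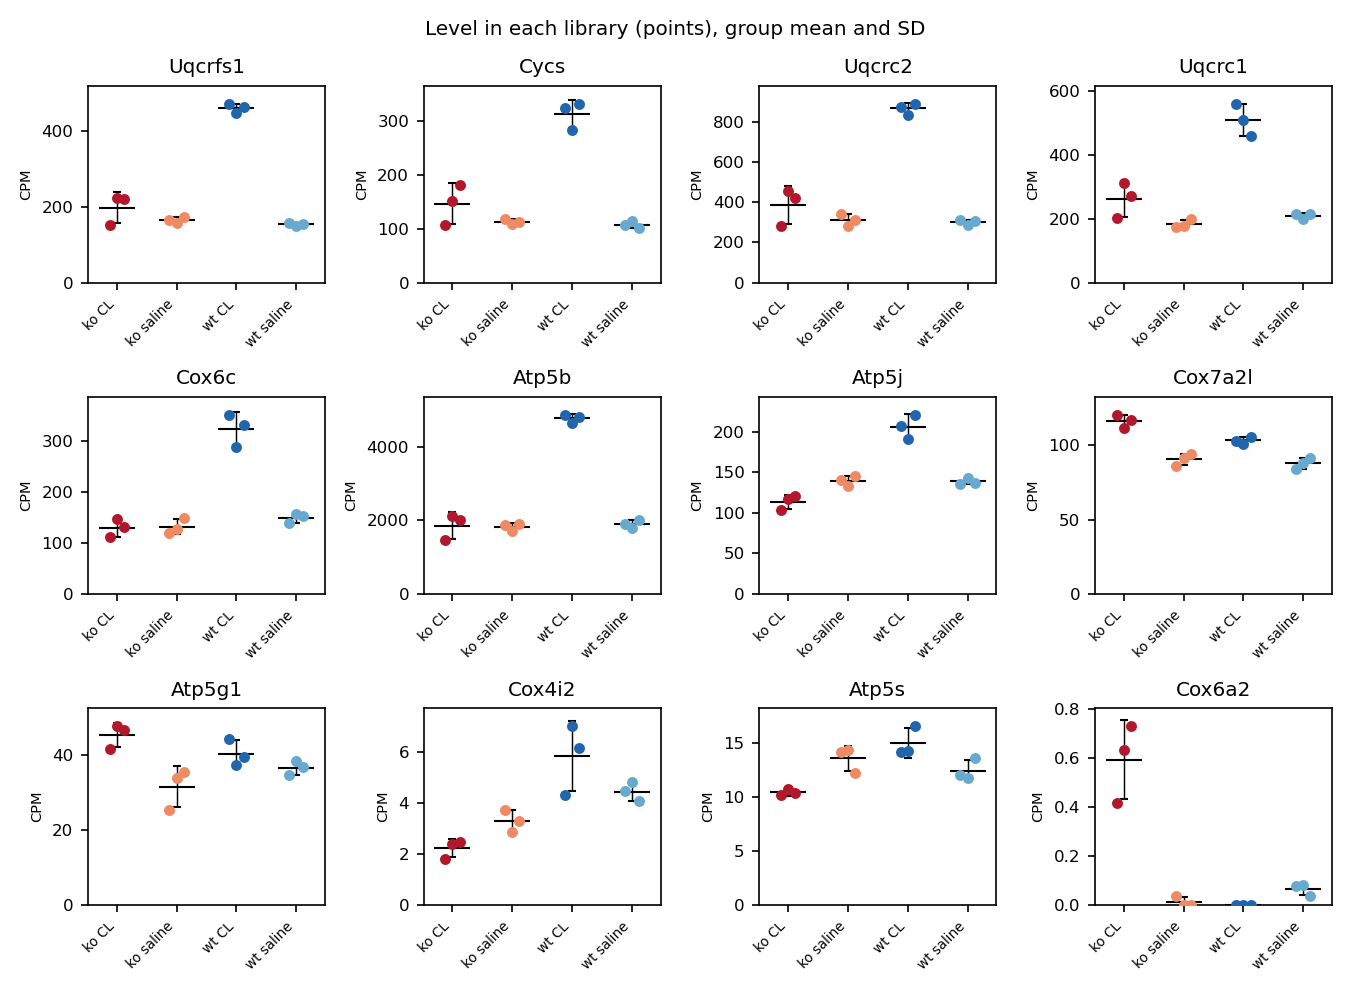
Level of 12 members in each library (points, CPM on a linear axis from 0) with the group mean and SD (n = 3 libraries per group). For Uqcrfs1, Cycs, Uqcrc2, Uqcrc1, Cox6c, Atp5b and Atp5j all wt CL libraries stand above all others. For Cox4i2 and Atp5s the wt CL mean is highest, but its libraries overlap other groups. Cox7a2l, Atp5g1 and Cox6a2 have their highest mean in ko CL.

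Complex V rose less than complex III in wt (median log2 fold change 0.74 over 17 genes), a difference that was not tested. In wt 14 were called higher, against 19.6% of all genes. In ko, 3 of the 17 rose and 2 fell, no larger shares than the 27.2% and 27.5% of all genes. Under CL 15 of 17 were lower in ko than in wt (median -0.82), against 29.3% of all genes. The catalytic head is built from Atp5a1 (alpha) and Atp5b (beta). Atp5b was at 1449.6, 2117 and 2001 CPM in ko CL and 1874, 1695 and 1902 in ko saline, against 4867, 4657 and 4818 CPM in wt CL and 1903, 1794 and 2002 in wt saline. The 9 libraries outside wt CL shared 1 range, and wt CL lay far above it. Atp5b rose by 1.33 ± 0.12 in wt (adjusted p = 7.86e-06) and was not called in ko (0.03 ± 0.12, adjusted p = 0.875), and ko was below wt under CL by -1.37 ± 0.12 (adjusted p = 9.85e-07, edgeR). Atp5a1 differed by 0.18 in ko and rose by 1.08 in wt.

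In the central stalk, the shaft that turns inside the head, Atp5d rose by 0.42 in ko and 0.74 in wt. Atp5c1 was at -0.02 in ko and rose by 0.71 in wt, and Atp5e was at 0.05 in ko and rose by 0.53 in wt, a call lost in the same settings as that of Uqcr11. The 4 peripheral stalk genes, which hold the head still, all rose in wt, Atp5o by 1.04, Atp5f1 by 1.01, Atp5h by 0.74 and Atp5j by 0.57. All 4 had a smaller response in ko, by -0.87 to -0.94. Atp5j, which encodes coupling factor 6, was the member that rose in wt and fell in ko. It was at 104, 117 and 120.4 CPM in ko CL and 141, 134 and 145 in ko saline, against 208, 191 and 221 CPM in wt CL and 136, 143 and 138 in wt saline. The CL libraries lay below saline in ko and above saline in wt with no overlap. The changes were -0.30 ± 0.07 in ko (adjusted p = 0.00385) and 0.57 ± 0.07 in wt (adjusted p = 7.43e-05), and they differed by -0.87 ± 0.10 (adjusted p = 2.63e-05, edgeR).

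The 4 accessory subunits of the membrane part, which help dimers of the enzyme to form or are small companions of it, all rose in wt. Atp5mpl rose by 1.001, Atp5j2 by 0.99, Atp5k by 0.97 and Atp5l by 0.60, and in ko they lay between 0.05 and 0.19 with none called among these 4 by edgeR (their adjusted p ran from 0.0902 for Atp5mpl to 0.772 for Atp5k). Atp5l, whose reads are mostly not unique, had the smallest called genotype difference of complex V under CL, -0.33 (adjusted p = 0.0454, edgeR). This difference was not called by DESeq2, with relative log expression scaling, without the filter on low counts or with only the 2 groups compared. Nor was it called without library 1 of ko CL, 2 of ko saline, 1 or 3 of wt CL or 3 of wt saline. It turned positive, uncalled, with scaling by library size alone. Atp5s, named for factor B of the enzyme, was at 10.2, 10.8 and 10.4 CPM in ko CL and 14.1, 14.4 and 12.3 in ko saline, and at 14.1, 14.2 and 16.6 CPM in wt CL and 12.0, 11.7 and 13.6 in wt saline. The ko CL libraries were below all others. Atp5s fell by 0.38 in ko (SE 0.10, adjusted p = 0.00563) and was not called in wt (0.27 ± 0.10, adjusted p = 0.0501), with a difference of -0.65 ± 0.14 (adjusted p = 0.00223, edgeR).

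The c ring, the proton-driven rotor, is made of 1 mature protein that 3 genes encode, and these genes parted company. Atp5g3 was at 189.6, 275 and 273 CPM in ko CL and 198, 209 and 239 in ko saline, against 525, 500.0 and 477 CPM in wt CL and 246, 232 and 233 in wt saline. Atp5g1 was at 41.6, 47.7 and 46.6 CPM in ko CL and 25.2, 33.7 and 35.4 in ko saline, and at 44.2, 37.2 and 39.3 CPM in wt CL and 34.6, 38.2 and 36.6 in wt saline. Atp5g2 was at 34.2, 38.5 and 37.6 CPM in ko CL and 23.5, 28.3 and 33.4 in ko saline, and at 47.0, 39.99 and 33.9 CPM in wt CL and 33.0, 34.7 and 32.5 in wt saline. Atp5g3 thus followed the other subunits, whereas for Atp5g1 and Atp5g2 the CL libraries lay above saline in ko and overlapped saline in wt.

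Atp5g3 rose by 1.08 ± 0.12 in wt (adjusted p = 3.24e-05) and was not called in ko (0.19 ± 0.12, adjusted p = 0.204, edgeR). Atp5g1 rose by 0.52 ± 0.11 in ko (adjusted p = 0.00155) and was not called in wt (0.14 ± 0.11, adjusted p = 0.354), but the difference of these responses was not called either (0.38 ± 0.16, adjusted p = 0.0661, edgeR). Atp5g2 was at 0.37 ± 0.13 in ko (adjusted p = 0.0233) and 0.27 ± 0.13 in wt (adjusted p = 0.112, edgeR). In brown fat of mice the message of Atp5g1 is known to limit how much ATP synthase is assembled. Because the genes encode 1 protein but rose unequally, the start regions of Atp5g3 and Atp5g1 are shown, on the minus strand of GRCm38.p6 (RefSeq) at chr2:73911277-73911576 and chr11:96075582-96075881. Capitals mark in Atp5g3 the oestrogen-related receptor motif and the NRF1 motif, both read on the other strand. None of the 5 motifs is in the letters of the Atp5g1 window. The window of Atp5g2, which is not shown, also holds the NRF1 motif. The part of these motifs in the unequal rises was not tested.
Atp5g3: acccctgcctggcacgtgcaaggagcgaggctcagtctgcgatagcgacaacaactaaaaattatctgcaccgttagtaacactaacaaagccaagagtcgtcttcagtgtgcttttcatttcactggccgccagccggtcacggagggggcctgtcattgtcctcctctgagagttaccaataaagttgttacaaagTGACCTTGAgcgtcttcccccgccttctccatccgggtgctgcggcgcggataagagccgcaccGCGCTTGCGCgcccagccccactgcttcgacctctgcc
Atp5g1: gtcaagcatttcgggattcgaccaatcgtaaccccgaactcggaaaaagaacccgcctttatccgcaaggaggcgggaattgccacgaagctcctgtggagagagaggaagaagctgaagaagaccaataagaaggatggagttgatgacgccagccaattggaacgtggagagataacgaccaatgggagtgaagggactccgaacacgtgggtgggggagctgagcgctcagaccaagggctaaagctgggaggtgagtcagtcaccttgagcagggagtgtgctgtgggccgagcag

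**Figure D4:**
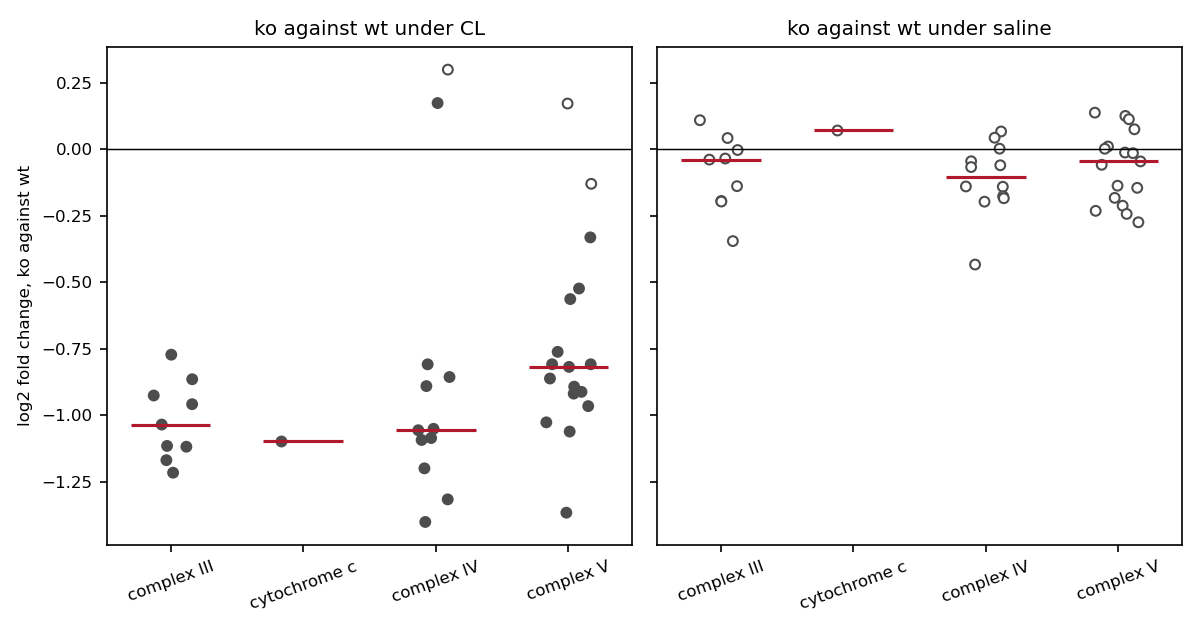
Log2 fold change of ko against wt under CL (left) and under saline (right) for 39 members by complex (Cox6a2 left out), each point a gene and the red line the median; filled points have an adjusted p under 0.05. Under CL most points lie between -0.5 and -1.4 and under saline none is filled.

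Isoform ratios within a library compare forms of 1 subunit within a library, so that the scaling of libraries hardly enters. They are log2 ratios of CPM + 0.5, not corrected for length, and were compared by exact two-sided permutation within strata of the other factor (400 arrangements, smallest p 0.005, Benjamini-Hochberg over 10 tests). The ratio of Cox7a1, the muscle and brown fat form of subunit 7a, to Cox7a2 was -3.11 ± 0.61 in ko CL and -5.47 ± 0.03 in ko saline, and -2.94 ± 0.12 in wt CL and -5.31 ± 0.13 in wt saline (mean ± SD, n = 3 each). CL raised it by 2.37 (exact p = 0.005, adjusted 0.0167), by 2.37 within ko and 2.37 within wt. Ko and wt differed by -0.16 (exact permutation p = 0.46, adjusted 0.511), and the ko CL libraries overlapped wt CL. The levels behind the ratio still differed: Cox7a1 was at 6.69, 20.4 and 15.9 CPM in ko CL and 36.1, 30.1 and 29.5 in wt CL, and Cox7a2 was at 99.3, 129 and 122 CPM in ko CL and 259, 232 and 251 in wt CL.

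The ratio of Cox8b, the muscle and brown fat form of subunit 8, to Cox8a was -2.80 ± 0.74 in ko CL and -5.02 ± 0.25 in ko saline, and -1.18 ± 0.11 in wt CL and -3.76 ± 0.52 in wt saline (mean ± SD, n = 3 each). CL raised it by 2.40 (exact permutation p = 0.005, adjusted 0.0167), and it was lower in ko by -1.44 (exact permutation p = 0.005, adjusted 0.0167), by -1.63 under CL and -1.26 under saline. Cox8b was at 7.76, 28.2 and 18.6 CPM in ko CL and 2.43, 3.59 and 5.36 in ko saline, against 133, 95.7 and 99.5 CPM in wt CL and 8.21, 8.77 and 15.9 in wt saline. Cox8a was at 99.002, 125 and 123 CPM in ko CL and 114, 127 and 163 in ko saline, against 284, 237 and 219 CPM in wt CL and 148, 150.2 and 147 in wt saline. The Cox8b ratio was therefore low in ko under both treatments, unlike the levels of the 40 tested members, none of which was called between genotypes under saline by edgeR. All 6 brown or beige markers, among which both isoforms are counted, rose with CL in both genotypes, as both ratios did. Under CL all 6 were lower in ko than in wt, although the Cox7a1 ratio hardly differed. Under saline only Cox8b itself was called lower among them. The part of these markers was not tested.

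The ratio of Atp5g1 to Atp5g3 was -2.41 ± 0.20 in ko CL and -2.77 ± 0.17 in ko saline, and -3.62 ± 0.10 in wt CL and -2.68 ± 0.11 in wt saline (mean ± SD, n = 3 each). That of Atp5g2 to Atp5g3 was -2.71 ± 0.22 in ko CL and -2.91 ± 0.12 in ko saline, and -3.63 ± 0.16 in wt CL and -2.81 ± 0.08 in wt saline. The wt CL libraries lay below all others in both. Under CL ko exceeded wt by 1.21 and 0.92, and under saline it differed by -0.08 and -0.10. Over both treatments the genotype difference was 0.57 for Atp5g1 and 0.41 for Atp5g2 (exact permutation p = 0.075 and 0.08, both adjusted 0.133), and that of CL was -0.29 and -0.31 (exact permutation p = 0.22 and 0.11, adjusted 0.275 and 0.157). The ratio of Cox6a2 to Cox6a1 rests on the few Cox6a2 counts and on the added 0.5 CPM. Averaged over genotypes it differed by -0.10 with CL (exact permutation p = 0.825), from 1.05 within ko and -1.25 within wt. Averaged over treatments it differed by 1.17 with genotype (exact permutation p = 0.04, adjusted 0.1), from 2.32 under CL and 0.03 under saline.

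**Figure D5:**
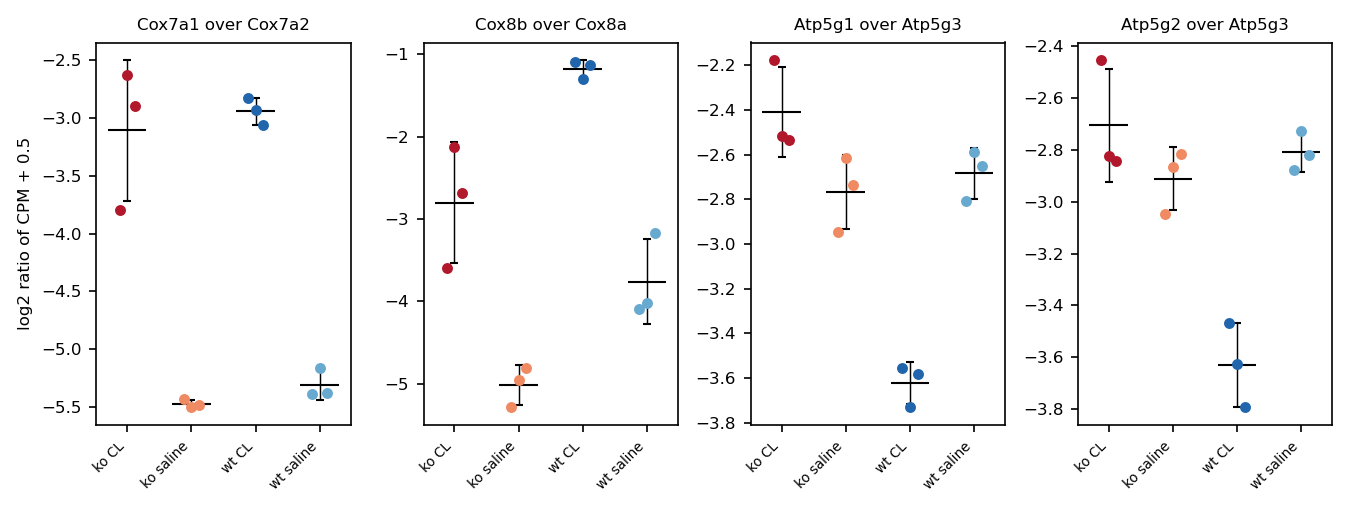
Log2 ratio of an isoform to its counterpart in each library (points), with group mean and SD (n = 3 per group); each panel has its own axis, which does not start at 0. CL lifts the Cox7a1 and Cox8b ratios in both genotypes, and the Atp5g1 and Atp5g2 ratios are lowest in wt CL.

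Factors that build these complexes mostly rose with CL in wt. Of 36 tested assembly factors of complexes III to V, 4 rose and 10 fell with CL in ko, no larger a share than the 27.2% of all genes and a share near the 27.5%. In wt 26 rose and 0 fell by edgeR (19.6% and 17.1% of all genes), and all 36 had a positive estimate. Between genotypes 34 were lower and 0 higher in ko under CL (29.3% and 27.6% of all genes). The CL response was smaller in ko for 24, against 23.6% of all genes. In ko, Coa7 at 0.46 and Cox10 at 0.37, which work on complex IV and its haem, rose, and Higd1a at -0.49 and Surf1 at -0.40 fell. In wt, Taco1, a translation activator of mt-Co1, rose by 0.98 and Lyrm7, which delivers the Rieske protein, by 0.85. Lyrm7 was lower in ko than in wt under CL by -1.13 and Higd1a by -1.10, and their responses differed by -1.22 and -1.11. Under saline Hccs, which attaches haem to cytochromes c, was higher in ko by 0.28. Uqcc3 at -0.54 and Cox20 at -0.36 were lower, with 1 further gene called lower. Of all genes, 7.99% were called higher and 6.45% lower in ko under saline.

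Most nuclear genes of complexes I and II, and the 2 tested mitochondrial genes of complexes III and IV, also rose in wt. Of 36 tested nuclear complex I subunits, 2 rose and 2 fell in ko, against 27.2% and 27.5% of all genes. In wt 34 rose, against 19.6% of all genes. Under CL all 36 were lower in ko than in wt, against 29.3% of all genes. Ndufa6 at 0.37 and Ndufs8 at 0.36 rose in ko, and Ndufb3 at -0.79 and Ndufv3 at -0.31 fell. Ndufa10 rose by 1.22 in wt. Ndufa10 and Ndufa1 were lowest in ko against wt under CL, at -1.30 each, and Ndufb3 was the only complex I gene called under saline, higher in ko by 0.71. Ndufb3 at -1.52 and Ndufa1 at -1.22 had the largest differences of response. All 4 complex II genes rose in wt, Sdha by 1.27 and Sdhd by 1.13, against 19.6% of all genes. In ko 2 of the 4 rose, Sdhb at 0.47 and Sdhd at 0.27, against 27.2% of all genes. Under CL all 4 were lower in ko than in wt (29.3% of all genes), with Sdha at -1.36 and Sdhb at -0.93 furthest below. The responses of Sdha and Sdhd differed by -1.27 and -0.86. Of 6 mitochondrially encoded partners of complexes III to V, 2 could be tested. Why the others could not was not examined, and no level is given for them. Of the 2 tested, mt-Cytb, the core of complex III, fell by 0.56 in ko and rose by 1.26 in wt. The other, mt-Co1, the core of complex IV, was at -0.23 in ko (adjusted p = 0.133, edgeR) and rose by 1.49 in wt. Both were lower in ko than in wt under CL, mt-Cytb by -1.85 and mt-Co1 by -1.70, and their responses differed by -1.82 and -1.73. All mitochondrial genes took 3.52% to 4.37% of gene counts in ko CL, 4.84% to 5.93% in ko saline, 9.50% to 10.4% in wt CL and 4.42% to 4.98% in wt saline.

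Among 17 tested regulators of respiratory genes, 4 rose and 3 fell with CL in ko, no larger shares than the 27.2% and 27.5% of all genes, and 8 rose in wt, where 19.6% of all genes did. Esrra at 0.62 and Pprc1 at 0.41 rose in ko, and the receptor Esrrg at -0.87 and the corepressor Nrip1 at -0.85 fell there. In wt Esrrg rose by 1.98 and Esrrb by 1.58. Under CL, Esrrg at -2.28 and the coactivator Ppargc1a at -1.42 were lower in ko than in wt, and Pprc1 at 0.61 was higher. Their responses differed by -2.85 for Esrrg, -1.27 for Ppargc1a and 0.63 for Pprc1, and Gabpb2 differed by 0.29. Of 6 tested genes for the exchange of ATP and ADP, 3 rose in ko and 5 in wt, against 27.2% and 19.6% of all genes. Slc25a5 rose by 0.66 in ko and 1.05 in wt, Vdac2 by 0.45 in ko and Vdac1 by 0.69 in wt. Under CL 5 of the 6 were lower in ko than in wt, against 29.3% of all genes. Slc25a5 at -0.67 and Vdac1 at -0.61 were below wt in ko under CL, and Vdac1 at -0.55 and Slc25a3 at -0.50 had the largest differences of response.

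The vacuolar proton pump, a relative of the ATP synthase that acidifies lysosomes, served as a contrast outside mitochondria. Of its 17 tested genes, 11 rose and 1 fell in ko, against 27.2% and 27.5% of all genes. In wt 9 rose and 2 fell, against 19.6% and 17.1% of all genes. In ko Atp6v0d2, known from macrophages and osteoclasts, rose by 6.84 and Atp6v1b2 by 1.51, and Atp6v0e2 fell by 1.74. In wt Atp6v1a rose by 0.67 and Atp6v1d by 0.62, and Atp6v0e2 fell by 0.97 and Atp6ap2 by 0.31. Under CL 9 were higher in ko than in wt (27.6% of all genes), led by Atp6v0d2 at 7.05 and Atp6v1b2 at 1.47. The 5 that were lower, a share near the 29.3% of all genes, were led by Atp6v0e2 at -0.96 and Atp6v0a2 at -0.30. Under saline 3 were higher in ko (7.99% of all genes), Atp6v1b2 by 0.38 and Atp6v1d by 0.30 among them. The responses differed by 6.27 for Atp6v0d2 and 1.16 for Atp6ap2, and by -0.77 for Atp6v0e2 and -0.50 for Atp6v0a2. The 7 macrophage markers named above were all higher with CL in ko and in ko against wt under CL. With CL in wt, 0 of them rose and 5 fell, and under saline 0 were called between genotypes. Their part was not tested.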

How the data were processed

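RNA-seq was measured in 12 libraries, grouped by their titles. The deposited counts are raw reads per gene from STAR and HTSeq on GRCm38, per the submitters' processing notes; neither versions nor the annotation release is stated there. Strand setting was reverse, per the file names. Of 53379 identifiers, 53274 matched GENCODE M21 (GRCm38). HTSeq's summary lines, equal to 12.5% to 17.2%, were left out.

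edgeR 4.0.16 (R 4.3.3) fitted all 12 libraries with 1 mean per group: TMM scaling, filterByExpr at a minimum count of 10, quasi-likelihood F tests with 8 residual degrees of freedom, and Benjamini-Hochberg adjustment over 16554 genes, called at 0.05. The code was tested on simulated data. Each standard error is |log2 fold change| divided by the root of F. Isoform ratios used a pseudocount of 0.5 CPM and exact permutation. Counting intervals and floors cover counting error only. Alternatives were DESeq2 1.42.0, other scalings, no filter, a replicate block and left-out libraries.

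Members and lists were chosen with earlier results of these data known. Values by library are given for the 3 largest called changes in each direction of each comparison and for the ratio genes; of other lists, the 2 largest are named, except for 1 gene that is not reported here.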

Additional observations from a re-analysis of the deposited data

Results flagged for a closer look

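The CL response differed between genotypes in 31 members, by edgeR's interaction test at an adjusted p under 0.05. Cox6a2 stands alone with a larger response in ko, a fitted log2 difference of 8.95 that rests on few counts and on a prior count, and it was not called without the 3 libraries wt saline 1, wt saline 2 and ko CL 2, which stood apart in epithelial, muscle or B cell markers.

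In complex III the response in ko minus that in wt was -1.32 for Uqcrfs1, -1.21 for Uqcrc2, -1.08 for Uqcrb, -0.999 for Cyc1, -0.77 for Uqcrh, -0.76 for Uqcrc1 and -0.73 for Uqcr10. The Uqcr10 call was lost without library 1 of ko CL, 3 of ko saline, 1 of wt CL, or 1 or 3 of wt saline, and with scaling by library size alone, which also lost that of Cox7c. Cycs had -1.17. In complex IV the differences were -1.14 for Cox6c, -1.06 for Cox6a1, -1.02 for Cox7a2, -1.01 for Cox5b, -0.99 for Cox7b, -0.97 for Cox4i2, -0.96 for Cox6b1, -0.95 for Cox8a, -0.81 for Cox5a and -0.66 for Cox7c.

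In the ATP synthase head the differences were -1.31 for Atp5b and -0.90 for Atp5a1, and in its stalks -0.94 for Atp5f1, -0.93 for Atp5o, -0.88 for Atp5h, -0.87 for Atp5j and -0.73 for Atp5c1. In its membrane part they were -0.92 for Atp5j2, -0.92 for Atp5k, -0.89 for Atp5g3 and -0.81 for Atp5mpl, and Atp5s had -0.65. In the same test 7 of 7 macrophage markers had a larger response in ko and 3 of 6 adipocyte markers a smaller one. Of all genes, 21.8% and 23.6% were so called. The part of these markers was not tested.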

How the results depend on the processing

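Members called higher with CL in ko numbered 11, and 6 with library size alone, 6 with the compared groups alone, 4 without 3 of the libraries that stood apart (wt saline 1, wt saline 2 and ko CL 2), and 4 to 20 with libraries left out in turn, the 20 without ko CL 1, which also stood apart. Library size alone also gave 1 member lower with CL in wt (Cox6a2, otherwise 0) and 2 higher in ko under saline (Cox7a2l and Atp5f1, otherwise 0). It gave 3 with a larger CL response in ko, where the main fit gave 1, and newly called Atp5g1 in ko against wt under CL. That setting moved the median of all genes by -0.10 for CL in ko, -0.33 for CL in wt, 0.39 for ko against wt under CL, 0.15 under saline and 0.20 for the difference of responses. It turned the sign of Cox7a2l with CL in wt and of Atp5l in ko against wt under CL, neither then called. Without a filter on low counts, 1 member was higher in ko under CL (2 in the main fit) and 2 had a larger response in ko. With libraries left out in turn, these 2 counts were 1 to 2 each, and 0 to 1 member (Atp5c1, without ko CL 1) was lower in ko under saline. Without the 3 libraries, 0 members had a larger response in ko.

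Replicate numbers are shared across groups, but same-numbered libraries were not seen to deviate together (correlations -0.36 to 0.18). They were not treated as pairs, although correlations of deviations from the mean of 3 libraries cannot exclude a pairing. With the replicate block the ratio differences stayed at 2.37, 2.40 and -1.44, at an adjusted p of 0.104 for Cox7a1 over Cox7a2 and Cox8b over Cox8a, since the sign-flip test cannot go lower; in the gene fit the block lost the Cycs call in ko. Without the 3 libraries those differences were 2.29, 1.94 and -1.91, at an adjusted p of 0.0833, with fewer arrangements possible. The other ratio results stayed on their side of 0.05. Of the values of named members, 329 kept direction and call and 9 lost the call, all of Cox4i2 with CL in ko, Cox7a2l in ko against wt under CL, or Cox6a2 in the difference of responses. At 21892817 counts or more, depth limits Cox6a2, Cox6b2, Cox7b2 and Cox8c.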
